A study of Mus musculus with 2 samples.

Results

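The collagen genes were followed over mouse cerebellum that carried breast tumors grown from transplanted organoids. They are all genes of the deposited probe panel whose symbol reads Col, a number, a and a number. That rule found 44 of 19465 genes. The 44 members were split by structure into 11 fibrillar collagens, 9 basement membrane collagens, 6 beaded filament collagens of type VI, 3 network-forming collagens of types VIII and X, 9 fibril-associated collagens, 4 transmembrane collagens and 2 others. Expression was measured with Visium CytAssist, which counts probe pairs ligated on fixed, paraffin-embedded tissue as unique molecular identifiers (UMIs) under a grid of spots. A spot is a small area that can hold several cells of different types.

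The series holds 2 sections, 5 µm thick, 1 from each of 2 mice, and both are labelled genotype HP, tissue cerebellum and no treatment. HP stands for mammary tumor organoids with activating HER2 and PIK3CA mutations. By the study's methods the organoids come from primary tumors that adenoviral Cre induced in the mammary gland of C57BL/6J mice. They were labelled with luciferase and injected on 1 side into the cerebellum of immunocompetent hosts of that strain, for which an age of 5 months is given. The human HER2 transgene is driven by an actin promoter. The title of section 1 (replicate 1) names HP-F1 +cre organoids and that of section 2 (replicate 2) HP-B6 +cre organoids, while the cell line label of both reads B6-HP. Injection places the cells in the brain directly, and no section without a tumor was analysed here, so neural tissue of the same section served as the reference.

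Collagens are triple-helical proteins built from 3 chains each. Fibrillar types I, III and V form the fibrils of connective tissue, type IV forms the sheet of every basement membrane, and type VI forms beaded filaments between them. Normal brain parenchyma holds few fibrils, and its collagen lies mostly in vessel basement membranes, meninges and choroid plexus. Fibrils in tumors are laid down chiefly by fibroblasts, while transmembrane type XVII and anchoring type VII belong to epithelium and its attachment to the basement membrane.

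Each section was divided by an index of 18 neuronal and glial genes, of which 16 were measured and none is a collagen. Spots low for the index, in connected patches of at least 50 spots, were called tumor. The first 2 rows of spots inside the border formed the inner edge, the rest of the patch the tumor interior, the first 2 rows outside it the outer edge, and all spots beyond them neural. In section 1 these regions held 616 tumor interior, 120 inner edge, 134 outer edge and 2421 neural spots. Section 2 had 614, 196, 220 and 2868 spots in the same order. Tumor spots formed 1 patch in section 1 and 2 separate patches in section 2, which were pooled as the tumor of that section. The UMIs of a region were summed to 1 library, which gave 8 libraries of 3101116 to 33425835 UMIs. Levels of single genes are counts per 1000000 UMIs (CPM) scaled by trimmed mean of M values (TMM). Sums of marker lists over a region add up these scaled values. Levels of collagen classes and all levels by distance from the border are unscaled CPM. Median UMIs per spot were 57126.5 in the tumor interior and 7738 in the neural spots of section 1, and 42773 and 9862 in section 2. CPM therefore give the share of a spot's RNA, and fewer cells of a type cannot be told apart from less RNA per cell.

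The labels were checked against cell type markers, and the sections stood apart. Epcam, an epithelial adhesion gene, had 7.17, 4.11, 7.1 and 3.57 CPM in the tumor interior, inner edge, outer edge and neural spots of section 1, against 2095, 1815, 773 and 48.7 CPM in section 2. Krt8, a simple-epithelium keratin, had 24.7 CPM in the tumor interior of section 1 and 1804 CPM in that of section 2. The 12 epithelial markers summed to 146 and 13144 CPM there, the fibroblast markers to 1519 and 161 CPM and the macrophage markers to 12698 and 3521 CPM. The patch of section 1 was thus low for epithelial markers, against its label, and is called tumor here by its low neural index alone. Every collagen result is therefore given for each section beside the joint test. No marker of the epithelial or fibroblast list was at 0 in any of the 8 libraries. The sections shared 3096 barcodes, because a barcode names a position on the capture array and not a cell.

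**Figure D1:**
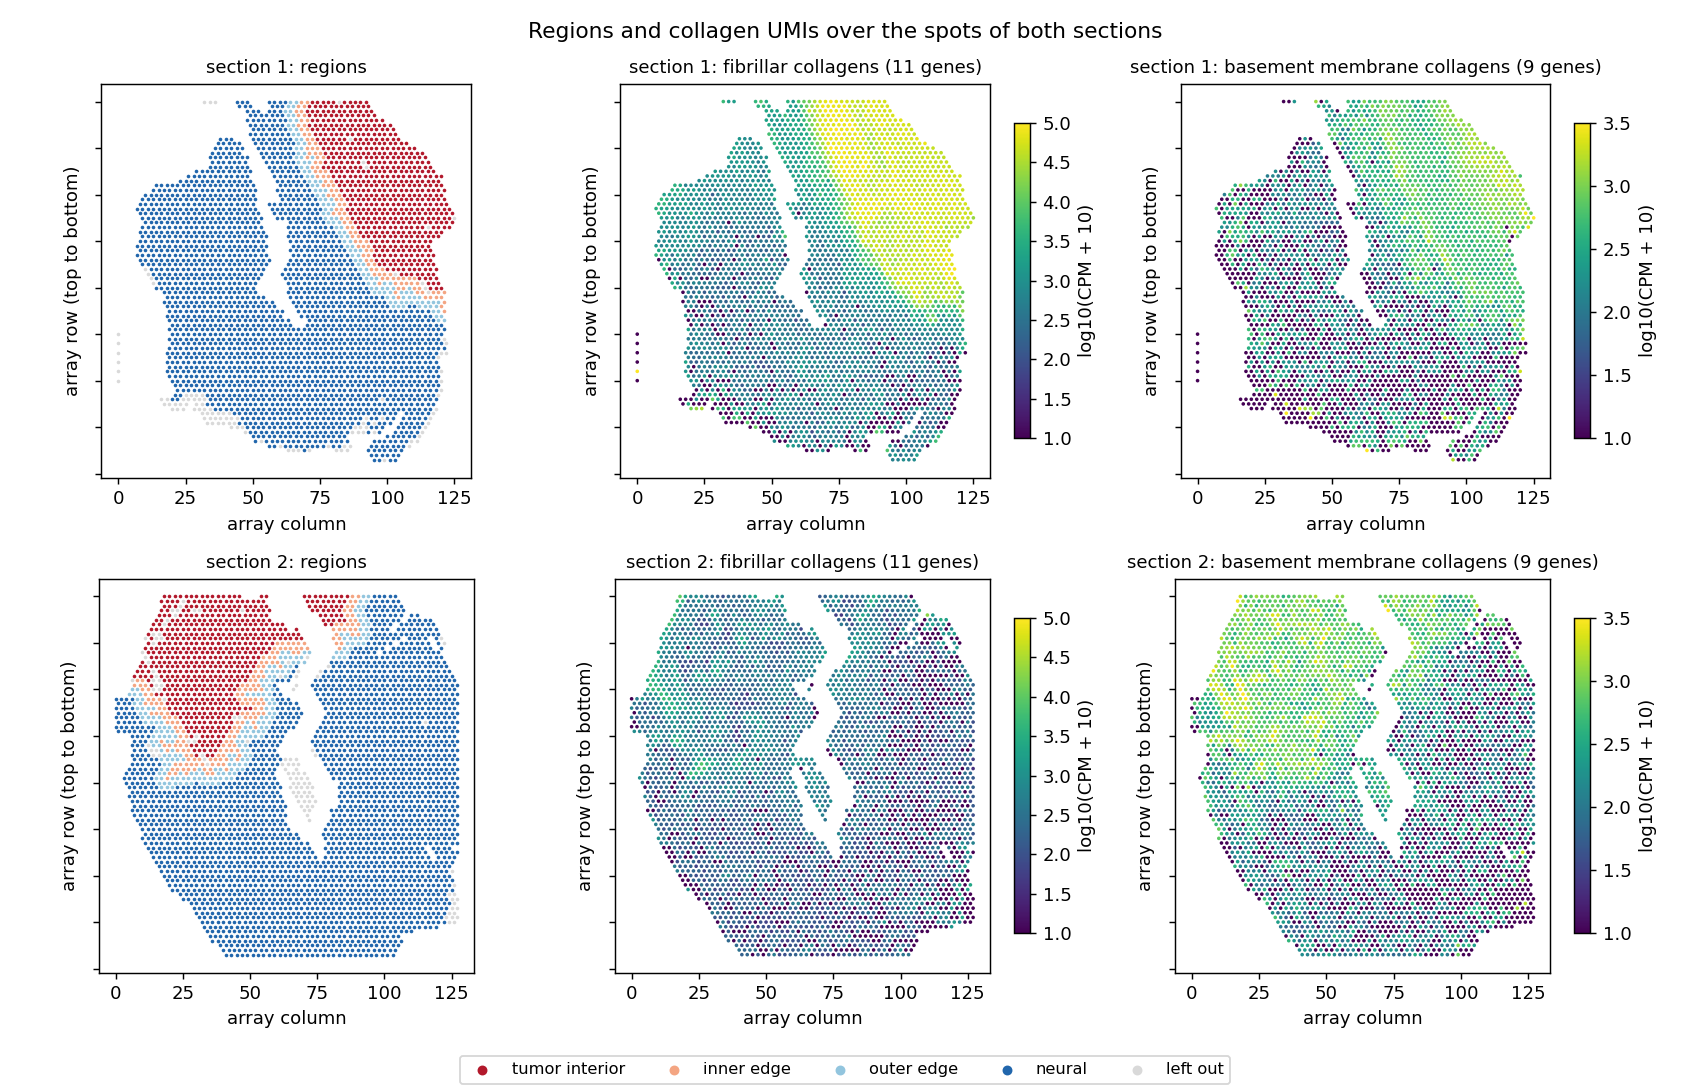
Spots of section 1 (top) and section 2 (bottom) at their array row and column, colored by region (left) and by log10(CPM + 10) of the 11 fibrillar (middle) and the 9 basement membrane collagens (right); the color scales of the classes differ. Fibrillar collagens made up 5.29% of all UMIs in the tumor interior of section 1 and 0.0464% in that of section 2. Basement membrane collagens made up 0.0723% and 0.0876% of the UMIs of the same regions.

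Promoter sequences of 4 members are shown because these genes mark the main patterns described later: Col1a2 and Col3a1, chains of types I and III with their highest levels in section 1; Col7a1, which was higher in the tumors of both sections; and Col17a1, which was counted almost wholly in section 2. Each run holds the 250 bases before the annotated start, 5′ to 3′ on the gene's strand, in RefSeq's table for GRCm38.p6 (mm10). Capitals mark letters of 3 textbook promoter motifs, each searched on both strands, and none of the marked stretches overlap. The letters searched were GGGCGG for the GC box. For the TATA box they were TATAAA. The third motif was the pentamer CCAAT, called the CAAT box here. The windows are chr6:4505368-4505617 on the plus strand, chr1:45311288-45311537 on the plus strand, chr9:108953336-108953585 on the plus strand and chr19:47692043-47692292 on the minus strand.
Col1a2: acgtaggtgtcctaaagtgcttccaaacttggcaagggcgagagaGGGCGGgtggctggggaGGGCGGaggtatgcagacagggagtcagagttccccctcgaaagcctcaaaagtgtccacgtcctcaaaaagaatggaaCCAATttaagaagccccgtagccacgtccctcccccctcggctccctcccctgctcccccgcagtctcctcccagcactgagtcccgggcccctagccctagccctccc
Col3a1: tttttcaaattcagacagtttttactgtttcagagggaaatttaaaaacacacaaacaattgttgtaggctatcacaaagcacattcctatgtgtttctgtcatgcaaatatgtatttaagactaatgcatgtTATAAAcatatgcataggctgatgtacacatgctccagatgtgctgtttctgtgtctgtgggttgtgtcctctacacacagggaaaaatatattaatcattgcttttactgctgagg
Col7a1: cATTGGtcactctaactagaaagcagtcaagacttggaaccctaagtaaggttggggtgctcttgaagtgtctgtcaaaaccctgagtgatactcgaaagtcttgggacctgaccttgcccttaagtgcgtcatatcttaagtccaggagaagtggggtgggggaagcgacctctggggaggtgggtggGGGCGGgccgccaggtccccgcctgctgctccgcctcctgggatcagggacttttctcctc
Col17a1: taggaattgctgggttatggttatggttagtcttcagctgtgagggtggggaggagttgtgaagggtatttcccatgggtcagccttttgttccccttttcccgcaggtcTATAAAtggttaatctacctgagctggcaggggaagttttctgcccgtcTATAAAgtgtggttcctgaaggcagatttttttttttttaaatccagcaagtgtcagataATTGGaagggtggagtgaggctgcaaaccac

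Col1a2 held 2 GC boxes and 1 CAAT box, Col3a1 1 TATA box, Col7a1 1 GC box and 1 CAAT box, and Col17a1 2 TATA boxes and 1 CAAT box. RefSeq's table gave 38 windows for 35 of the 44 members. Col1a1, Col2a1, Col4a3, Col5a2, Col9a3, Col12a1, Col14a1, Col22a1 and Col26a1 had no entry. A CAAT box was found in 13 of the 38 windows (34.2%) and in 33.8% of all 32851 windows of that length. A GC box was found in 22 (57.9%) against 32.7%, and a TATA box in 5 (13.2%) against 12.4%. A match shows only that the letters are present.

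Collagen as a whole took a far larger share of the RNA in tumor than in neural spots, and its make-up differed between the sections. In section 1 the 44 genes gave 5.93% of all UMIs in the tumor interior, 6.08% at the inner edge, 2.64% at the outer edge and 0.148% in neural spots. Section 2 had 0.233%, 0.32%, 0.244% and 0.0635% in that order. Col1a1, Col1a2 and Col3a1 alone supplied 86.9% of the collagen UMIs in the tumor interior of section 1 and 15.6% in that of section 2. Col4a1 and Col4a2 supplied 0.684% and 25.1%.

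The fibrillar class reached 52858 CPM in the tumor interior of section 1 (exact 95% Poisson interval 52779.9 to 52936) against 961 CPM in its neural spots. In section 2 it had 464 CPM (456 to 473) in the tumor interior, 973 at the inner edge, 680.1 at the outer edge and 204 in neural spots. The basement membrane class had 723, 801, 542 and 177 CPM in section 1 and 876, 978, 745 and 156 CPM in section 2. The 24 remaining collagens had 5701 and 344 CPM in tumor interior and neural spots of section 1, and 991 and 275 in section 2. Tumor interiors thus differed more than 100-fold between the mice in fibrillar collagen and by less than 1.5-fold in basement membrane collagen. With 1 mouse behind each section that difference was not tested, and the intervals cover counting error only. Counted per spot, the basement membrane class had 39.2 UMIs in the tumor interior of section 1 and 37.4 in that of section 2, against 1.57 and 1.74 in neural spots.

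The first comparison asked which collagens differ between the tumor and the surrounding neural tissue. It was tested with edgeR's quasi-likelihood test on the 8 libraries with the section as a block. All 44 members passed the filter on low counts. Of these, 26 were called at an adjusted p below 0.05, that is 59.1%, while 35.2% of all 19112 genes tested were called. 19 members (43.2%) were higher in the tumor interior, against 17.2% of all genes, and 7 (15.9%) were lower, against 18.0%. The median log2 fold change was 1.49 over the members and -0.14 over all genes. By class, 3 fibrillar, 7 basement membrane, 3 beaded filament, 2 network, 3 fibril-associated and 1 transmembrane collagen were higher, while 1 fibrillar, 1 basement membrane, 1 beaded filament and 3 fibril-associated collagens and 1 of the others were lower. Within each section alone 35 of the 44 members moved the same way, and 9 moved in opposite directions. Col17a1 was among the 35 by 1 UMI in section 1. Of all genes tested, 77.3% moved the same way. Without the section as a block only 14 members were called (20.3% of all genes), and those lost were Col1a1, Col3a1, Col5a2, Col6a2, Col6a3, Col12a1, Col17a1, Col10a1, Col4a4, Col6a6, Col22a1 and Col26a1. Other settings ended the calls of some members at low levels: Col6a6 under DESeq2, Col6a6, Col22a1 and Col4a4 with a raised neural threshold, Col10a1 with a lowered one or library size as the only scaling, Col6a6 and Col10a1 with an edge of 4 steps, Col22a1 with an edge of 1 step, and Col6a6, Col20a1, Col22a1 and Col26a1 with regions from 2-means clustering. With 2 sections the test has 3 residual degrees of freedom.

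**Figure D2:**
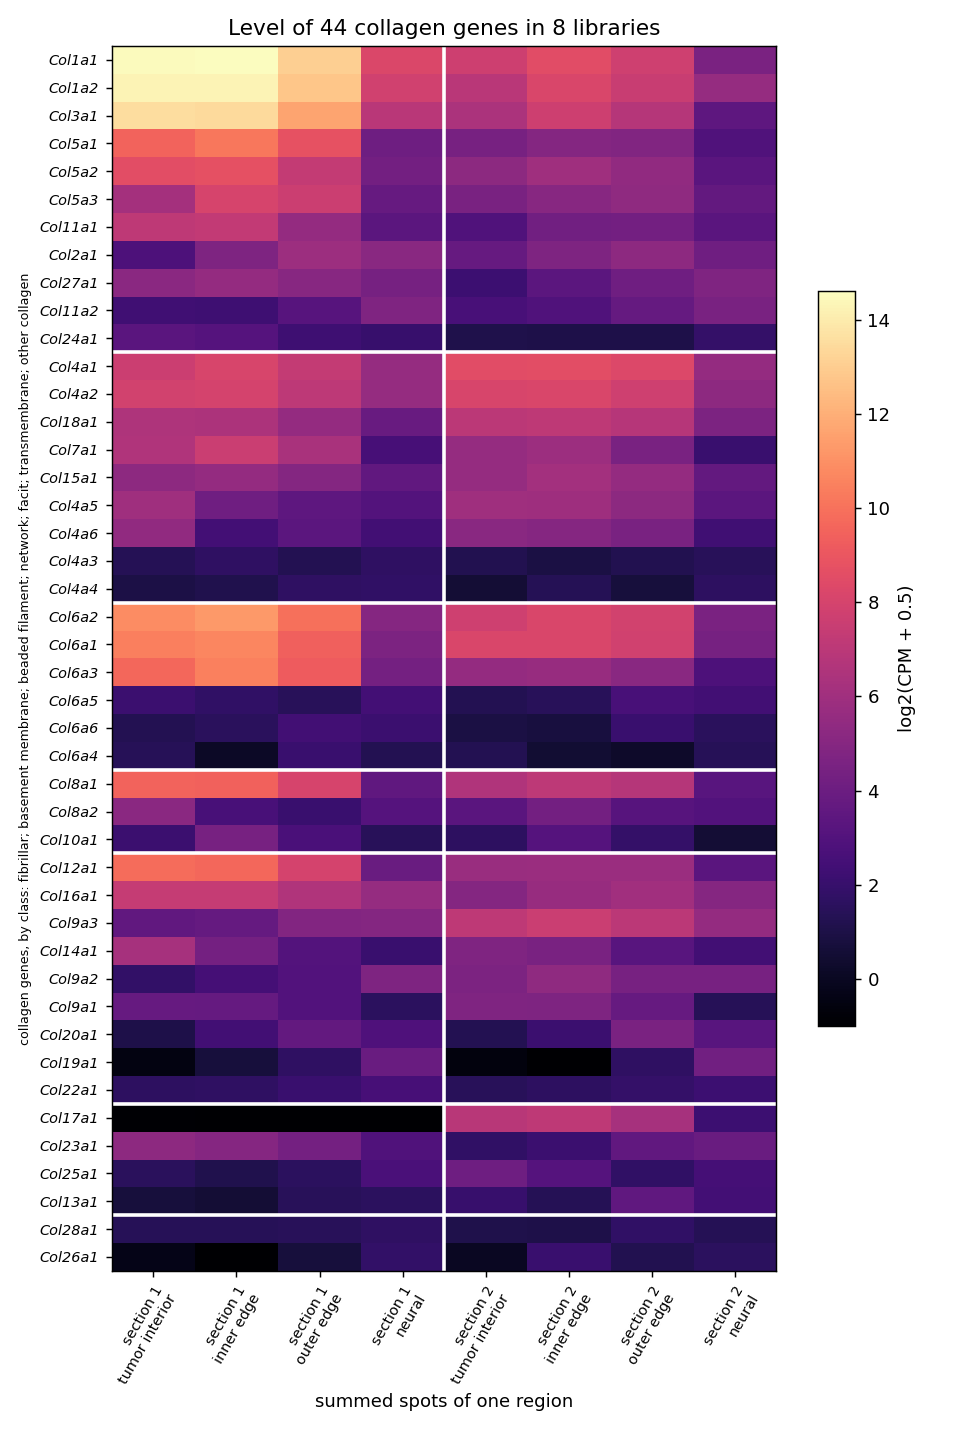
Level of the 44 members, in log2(CPM + 0.5), with one row per gene grouped by class and one column per library, the 4 regions of section 1 on the left and of section 2 on the right. Col1a1, Col1a2 and Col3a1 are brightest in the tumor interior and inner edge of section 1, Col4a1 and Col4a2 are bright in both tumors, and Col17a1 is dark throughout section 1.

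The fibrillar collagens gave the highest values and the widest gap between the mice. Col1a1, the alpha 1 chain of type I collagen, had 23253, 25104, 8717 and 297 CPM in the tumor interior, inner edge, outer edge and neural spots of section 1. In section 2 it had 202, 366, 214 and 23.6 CPM in that order. Both tumors exceeded their own neural spots, but every value of section 1 outside the neural spots was above all values of section 2 (log2 fold change 4.57, SE 0.88, adjusted p = 0.0121). The log2 ratio of tumor interior to neural CPM, each with 0.5 added, was 6.29 in section 1 and 3.07 in section 2. Between tumor interior and neural spots alone, the summed fibroblast markers went with Col1a1 in section 1 and against it in section 2, while single markers differed. They summed to 1519 CPM in the tumor interior and 537 CPM in neural spots of section 1, and to 161 and 552 CPM in section 2. The edges did not follow this throughout. Inner and outer edge had sums of 1034 and 461 CPM in section 1 and 238 and 395 CPM in section 2. The part of these markers in the fibrillar levels was not tested. Of that list, Pdgfrb had 280.0 and 19.2 CPM in tumor interior and neural spots of section 1 and 40.4 and 21.6 CPM in section 2, while Pdgfra had 191 and 28.3 CPM and 7.18 and 28.3 CPM. Between 31 to 60 and 3 to 4 rows outside the border, the list fell from 847 to 322 unscaled CPM in section 1. In section 2 it fell from 668 to 395 CPM. The genes of the neural index fell there too, from 30036 to 10887 and from 23169 to 10285 CPM. Neural sums of the list are therefore not read as fibroblasts alone.

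Col1a2, which pairs with Col1a1 in the type I trimer, had 19599.6, 20074, 6856 and 228 CPM in section 1 and 122, 292, 182 and 49 CPM in section 2. It was higher in tumor than in neural spots of both, yet did not pass the test (log2 fold change 3.46, SE 1.30, adjusted p = 0.091), with log2 ratios of 6.42 and 1.30. Col3a1, the only chain of type III collagen, which accompanies type I in loose tissue, had 11796, 10970.0, 3282 and 122 CPM in section 1 and 86.2, 205, 109 and 10.7 CPM in section 2. Its neural spots were the lowest library of each section (log2 fold change 4.80, SE 0.96, adjusted p = 0.0136).

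Type V chains enter type I fibrils and limit their width. Col5a2 had 393, 423, 160.0 and 19 CPM in section 1 and 37.8, 61.8, 43.3 and 9.37 CPM in section 2 (log2 fold change 3.17, SE 0.60, adjusted p = 0.0117). Col5a1 had 739.6, 1146, 440.2 and 16.7 CPM and 21.1, 30.5, 27.8 and 7.11 CPM. That gene was above neural spots in both tumors, with log2 ratios of 5.43 and 1.51, and did not pass the test (log2 fold change 3.08, SE 1.06, adjusted p = 0.0722). Col5a3 stood out by its place: it had 70.5, 269, 196 and 13.5 CPM in section 1 and 22.3, 32.5, 40.8 and 12 CPM in section 2, so that the inner and outer edges exceeded both the tumor interior and the neural spots in each section. It did not pass in any of the 4 comparisons (adjusted p = 0.141 for tumor interior against neural and 0.0623 for outer edge against neural).

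None of the cartilage-type fibrillar collagens followed types I and III in both sections, and Col11a1 did so in section 1 alone. Col11a2, a type XI chain, was lower in the tumor, with 4.54, 4.31, 8.52 and 26.6 CPM in section 1 and 5.59, 7.28, 12.8 and 22.3 CPM in section 2, a fall from neural spots through the outer edge into the tumor in both (log2 fold change -2.30, SE 0.33, adjusted p = 0.00436). Col11a1, the partner chain, had 143, 151, 47.5 and 9.98 CPM in section 1 and 7.23, 18.3, 18.7 and 9.54 CPM in section 2, so that the tumor interior exceeded the neural spots only in section 1 (adjusted p = 0.243). Col2a1, the main chain of cartilage collagen, had its highest library at the outer edge of both sections, with 6.44, 26, 58.8 and 34.4 CPM and 13.2, 26, 39 and 17.4 CPM (adjusted p = 0.0878 for tumor interior against neural). Col27a1 and Col24a1, the remaining fibrillar members, stayed below 50 CPM and moved in opposite directions, with log2 ratios of tumor interior to neural of 0.83 and -2.54 for Col27a1 and 1.28 and -0.80 for Col24a1.

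Of the 9 basement membrane collagens 7 were higher in the tumor interior, by similar amounts in both mice. Col4a1 and Col4a2 encode the chains of the common type IV trimer. Col4a1 had 197, 273, 162 and 48.3 CPM in section 1 and 378, 397, 313 and 47.4 CPM in section 2 (log2 fold change 2.49, SE 0.30, adjusted p = 0.00252). Col4a2 had 233, 257, 133 and 48.3 CPM in section 1 and 281, 293, 213 and 39.7 CPM in section 2 (log2 fold change 2.53, SE 0.27, adjusted p = 0.00175). Both tumors and both edges of either mouse lay above all neural libraries for these 2 genes. The 9 measured endothelial markers summed to 341 CPM in the tumor interior and 359 CPM in neural spots of section 1, and to 498 and 391 CPM in section 2. The 9 mural cell markers summed to 146 and 158 CPM in section 1 and 286 and 145 CPM in section 2. In section 1 both sums were thus slightly lower in the tumor interior than in neural spots, while Col4a1 and Col4a2 were higher. The inner edge of section 1 was its highest library for both sums, at 636 and 451 CPM, and for both genes. By distance, however, Col4a1 and Col4a2 were highest deep in that tumor. They had 388 and 394 unscaled CPM at 16 to 20 rows inside the border, against 249 and 240 CPM in row 1. In section 2 the endothelial sum was highest at the outer edge, at 680 CPM, and the mural sum at the inner edge, at 289 CPM. The part of these cells in type IV levels was not tested.

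Col4a5 and Col4a6, the chains of a type IV trimer found in epithelial and smooth muscle basement membranes, were also higher. Col4a5 had 62.7, 17.4, 10.5 and 7.68 CPM in section 1 and 63.8, 60.4, 36.9 and 9.78 CPM in section 2 (log2 fold change 2.91, SE 0.53, adjusted p = 0.0102). Col4a6 had 43.6, 4.89, 9.95 and 4.8 CPM and 35.2, 32.2, 22.8 and 4.52 CPM (log2 fold change 3.12, SE 0.76, adjusted p = 0.026). The tumor interiors of both mice were alike for this pair, but the inner edge was far below the interior in section 1 and close to it in section 2. Col4a4, a chain of the glomerular type IV trimer, was low and lower in tumor, with 1.49, 1.76, 2.84 and 2.92 CPM and 0.946, 2.01, 1.14 and 2.7 CPM (log2 fold change -1.22, SE 0.31, adjusted p = 0.029).

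Of the other basement membrane members, Col18a1, the source of endostatin, had 92.1, 86.5, 47.5 and 13.8 CPM in section 1 and 128, 144, 116 and 24.3 CPM in section 2 (log2 fold change 2.58, SE 0.23, adjusted p = 0.00118). Col15a1, its close relative of vessel and muscle basement membranes, had 39.1, 47.4, 30.1 and 11.8 CPM and 48.6, 68.3, 47.4 and 12.2 CPM (log2 fold change 1.85, SE 0.21, adjusted p = 0.00221). Neural spots were the lowest library of each section for both. Col7a1, which forms the anchoring fibrils under stratified epithelium, had 95.7, 186, 80.1 and 5.53 CPM in section 1 and 49.6, 58.5, 22.1 and 3.67 CPM in section 2 (log2 fold change 3.91, SE 0.37, adjusted p = 0.00131). It was higher in section 1, the section in which the epithelial markers were low. Col4a3 stayed below 3 CPM in all libraries.

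**Figure D3:**
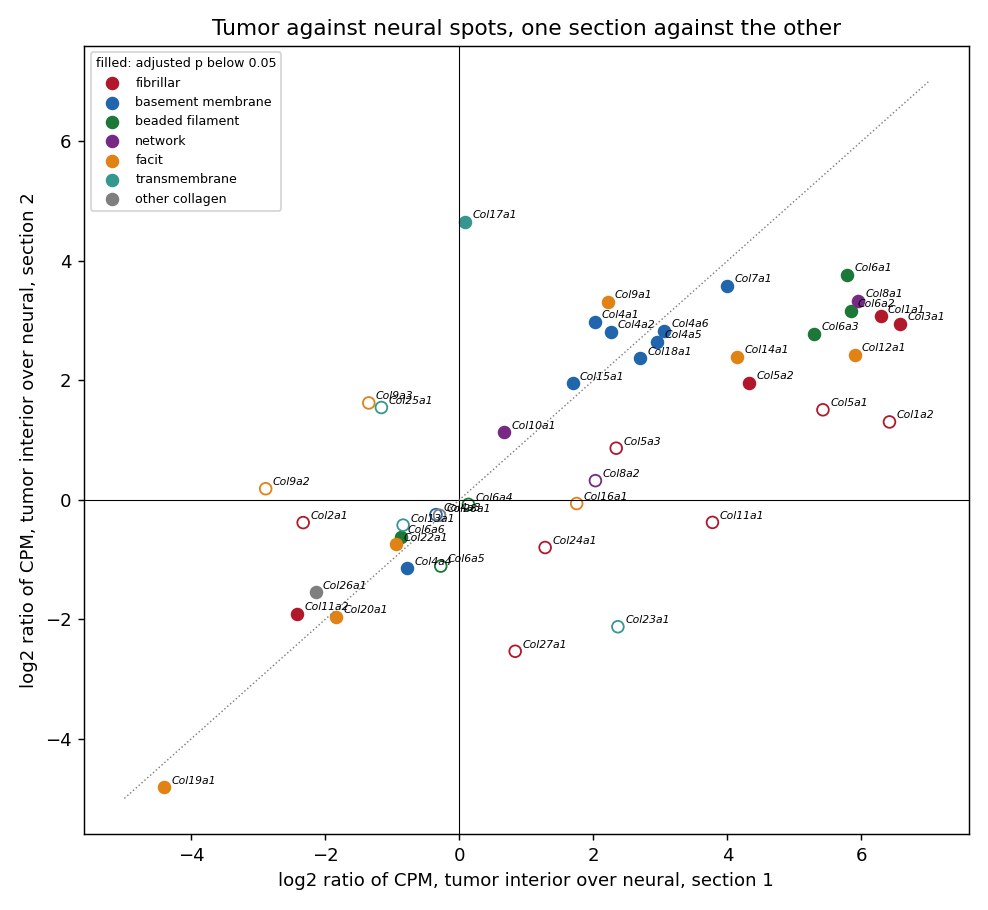
Log2 ratio of CPM (0.5 added) in tumor interior over neural spots, section 1 on the x axis and section 2 on the y axis, for the 44 members colored by class; filled points had an adjusted p below 0.05 and the dotted line marks equal ratios. Basement membrane collagens lie near the line, and Col1a1, Col1a2, Col3a1, Col5a1 and Col6a1 to Col6a3 lie to its right. Col17a1 lies left of the line, at 0.09 on the x axis, since its section 1 libraries held 1 UMI in all.

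The 3 main chains of type VI, which assemble into beaded filaments around cells, were higher in both tumors. Col6a1 had 1398, 1613, 662 and 24.8 CPM in section 1 and 293, 288, 224 and 21 CPM in section 2 (log2 fold change 4.68, SE 0.64, adjusted p = 0.00397). Col6a2 had 1864, 2547, 992 and 32.1 CPM and 213, 293, 233 and 23.3 CPM (log2 fold change 4.34, SE 0.77, adjusted p = 0.00932). Col6a3 had 798, 1468, 597 and 19.8 CPM and 47.1, 50.5, 34.4 and 6.46 CPM (log2 fold change 3.78, SE 0.82, adjusted p = 0.0182). All 3 chains were above neural spots in tumor and edges of both mice, with log2 ratios in section 2 of 3.77 for Col6a1, 3.16 for Col6a2 and 2.78 for Col6a3. The ratio of Col6a3 to Col6a2 UMIs was 0.428 in the tumor interior of section 1 and 0.222 in that of section 2. Probes of the 2 genes may capture with different efficiency, so only the change of the ratio is read. The chains Col6a4, Col6a5 and Col6a6 were low, and Col6a6 had 1.9, 2.35, 4.83 and 3.92 CPM and 1.38, 1.24, 3.65 and 2.38 CPM, which was lower in tumor (log2 fold change -0.92, SE 0.23, adjusted p = 0.0291).

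Among the network collagens, Col8a1, a short-chain collagen of vessel walls and corneal endothelium, had 720.0, 706, 264 and 11.1 CPM in section 1 and 95.6, 134, 108 and 9.02 CPM in section 2 (log2 fold change 4.66, SE 0.72, adjusted p = 0.00592). Col10a1, known from hypertrophic cartilage, was a rim gene at low counts: it had 3.97, 21.9, 5.97 and 2.3 CPM and 2.71, 8.21, 3.19 and 0.969 CPM, from 112 and 53 UMIs at the inner edges. The inner edge was the highest library of each section. Tumor interior exceeded neural spots (log2 fold change 1.13, SE 0.32, adjusted p = 0.0412). Inner edge against tumor interior gave a log2 fold change of 2.04 (SE 0.32), which was not called (adjusted p = 0.713).

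Fibril-associated collagens, which decorate fibrils without forming them, split into higher and lower members. Col12a1, found along type I fibrils, had 899, 804, 259 and 14.6 CPM in section 1 and 52.4, 55.8, 54.7 and 9.34 CPM in section 2 (log2 fold change 4.03, SE 0.96, adjusted p = 0.0245). Col14a1, its close relative, had 74.2, 19.4, 7.67 and 3.72 CPM and 26.9, 22.9, 9.11 and 4.7 CPM (log2 fold change 3.53, SE 0.53, adjusted p = 0.0053), with the tumor interior as the highest library of each section. Col9a1, a type IX chain, had 13.4, 12.9, 7.39 and 2.5 CPM and 26.5, 26, 13.2 and 2.2 CPM (log2 fold change 2.96, SE 0.39, adjusted p = 0.00328). These 3 genes were thus higher in both tumors.

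Col19a1, a collagen made by certain neurons of the brain, had the largest fall of all members. It had 0.222, 1.17, 2.84 and 14.8 CPM in section 1 and 0.172, 0, 2.73 and 18.4 CPM in section 2, from 7 and 4 UMIs in the tumor interiors and 385 and 627 in the neural spots (log2 fold change -6.37, SE 0.84, adjusted p = 0.00345). For counts of 0 a 95% Poisson limit on the upper side only is given. The count of 0 at the inner edge of section 2 allows up to 3 of its 6970807 UMIs, and so does that of Col26a1 below, among the UMIs of the inner edge of section 1. Col20a1 had 1.52, 4.7, 12.2 and 6.76 CPM and 1.94, 3.87, 23.5 and 8.96 CPM; it was lower in the tumor interior (log2 fold change -2.17, SE 0.36, adjusted p = 0.00671), yet its outer edge was the highest library of each section. Col22a1 had 2.6, 2.74, 3.69 and 5.45 CPM and 2.28, 2.63, 3.19 and 4.17 CPM (log2 fold change -0.97, SE 0.24, adjusted p = 0.0251), and Col26a1, one of the 2 unclassified members, 0.317, 0, 1.14 and 3.11 CPM and 0.516, 3.72, 1.82 and 2.47 CPM (log2 fold change -2.80, SE 0.83, adjusted p = 0.0481). Col16a1 had 167, 170.1, 96.6 and 49.4 CPM in section 1 and 30.2, 51.1, 66.5 and 31.6 CPM in section 2. Its tumor interior was above neural spots only in section 1 (adjusted p = 0.206), while both edges were above them in each section.

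Col17a1 gave the lowest p of all members, and it rested on 1 mouse. This transmembrane collagen of hemidesmosomes had 118, 141, 74.5 and 4.2 CPM in section 2. In section 1 a single UMI was counted among 33425835 UMIs of the tumor interior and none in the other regions. The fit gave log2 fold change 4.80, SE 0.32, adjusted p = 0.000589, which describes section 2, where the log2 ratio was 4.66. In section 2 the epithelial markers fell with it, from 13144 CPM in the tumor interior to 337 CPM in neural spots, and in section 1 they were at 146 CPM or lower.

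Several members moved in opposite directions in the 2 mice, and none of these passed the test. Col9a3, a type IX chain, had 11.5, 12.9, 29 and 30.2 CPM in section 1 and 144, 191, 131 and 46.3 CPM in section 2, so that the first tumor was below and the second above its neural spots (adjusted p = 0.94). Col23a1 had log2 ratios of tumor interior to neural of 2.37 in section 1 and -2.13 in section 2, and Col25a1, a transmembrane collagen of neurons, of -1.16 and 1.55. The 11 members not given in full, namely Col4a3, Col6a4, Col6a5, Col8a2, Col9a2, Col13a1, Col23a1, Col24a1, Col25a1, Col27a1 and Col28a1, lay between 0.587 and 47.4 CPM in all libraries. The difference between the sections was not tested for any of them.

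Neighboring collagen genes did not always move together. Col4a1 (chromosome 8, 11198423 to 11312889) and Col4a2 (11312805 to 11449287) lie head to head and overlap by 85 bases in the annotation of GRCm38.p6, and both rose. Col3a1 (chromosome 1, 45311538 to 45349706) and Col5a2 (45374331 to 45503282), 24624 bases apart, rose together, as did Col4a6 and Col4a5 on chromosome X, which are 1274 bases apart, and Col6a2 and Col6a1 on chromosome 10, which are 85161 bases apart. Col9a1 (chromosome 1, 24177589 to 24252738) and Col19a1 (24257683 to 24587922), only 4944 bases apart, moved in opposite directions, with log2 fold changes of 2.96 and -6.37. Col4a4 and Col4a3, which overlap by 114 bases on chromosome 1, both stayed below 3 CPM, and only Col4a4 was called.

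The second comparison asked which collagens reach beyond the border, from the outer edge against neural spots farther away. 14 members were called (31.8%), all of them higher at the outer edge, while 13.1% of all genes tested were called and 6.79% were called higher. They were a part of the 19 that were higher in the tumor interior: Col4a1, Col4a2, Col7a1, Col15a1 and Col18a1 of the basement membrane, the fibrillar Col1a1, Col3a1 and Col5a2, then Col6a1, Col6a2, Col8a1, Col10a1, Col9a1 and Col17a1. Col17a1 had 0 UMIs in these regions of section 1, so its call rests on section 2. The median log2 fold change was 1.20 over the members and -0.03 over all genes. Col4a1 led the type IV chains (log2 fold change 2.21, SE 0.29, adjusted p = 0.0139), with log2 ratios of 1.74 and 2.71 in sections 1 and 2. Col1a1 was just past the threshold (log2 fold change 3.75, SE 0.83, adjusted p = 0.0412), with ratios of 4.87 and 3.15. Outer edge spots lie next to tumor spots and may hold tumor tissue. The epithelial markers summed to 4904 CPM at the outer edge of section 2, and the part of such mixing in these calls was not tested. Without the section as a block 3 of the 14 members were called, Col4a1, Col4a2 and Col15a1 (4.38% of all genes). Col1a1, Col3a1, Col5a2, Col9a1 and Col10a1 were also lost with a raised neural threshold and with an edge of 4 steps. No member was called with regions set by 2-means clustering of the spots, under which 0 genes in all were called.

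The other 2 comparisons asked how the edges differ from each other and from the tumor interior. Inner edge against tumor interior gave 0 called members and 0 called genes by edgeR. 3 members had an unadjusted p below 0.05, namely Col10a1, Col20a1 and Col2a1, while 3.53% of all genes did. DESeq2 called 0 members and 0.576% of all genes. Outer edge against inner edge also gave 0 called members and 0 called genes by edgeR, with 11 members and 15.8% of all genes at an unadjusted p below 0.05. DESeq2 called 7.02% of all genes and 4 members there: Col20a1 was higher at the outer edge, and Col7a1, Col10a1 and Col15a1 were lower.

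Levels by distance from the border showed patterns inside these regions. Distance was counted in steps from spot to neighboring spot, positive inside the tumor and negative outside, each section alone and in unscaled CPM of at least 20 spots. In section 1 Col1a1 held between 18824 and 24778 CPM throughout the tumor, fell to 12760.5 CPM at step -1, 5376 CPM at step -2 and 1543 CPM at steps -4 to -3, and was at 125 CPM at steps -30 to -21. In section 2 it was highest at step 1, with 402 CPM against 173 CPM at steps 3 to 4, and fell to 12.7 CPM at steps -30 to -21. The fibrils' messages in section 2 were thus at a maximum in the row of tumor spots along the border, and in section 1 they were high throughout the tumor.

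Far from the tumor, transcripts of genes that were higher in the tumor interior were still counted, at shares that differed between genes and sections. At 31 or more steps Col1a1 was at 0.828%, Col1a2 at 0.779% and Col3a1 at 0.739% of their tumor interior level in section 1. In section 2 these 3 genes were at 6.76%, 34.0% and 6.33% of theirs, Col17a1 at 0.82% and the epithelial markers at 0.915%. Col4a1 was at 15.9% and 5.9% in sections 1 and 2, and the macrophage markers were at 6.65% and 29.8%. The source of these far counts was not tested, and the neural levels of Col1a1, Col1a2 and Col3a1 in section 1 include them. More of the neural counts came from spots near the tumor. Of 7743 Col1a1 UMIs in neural spots of section 1, 1676 were counted at 31 or more steps. At steps -4 to -3 there were 3035, and at steps -6 to -5 there were 1388.

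**Figure D4:**
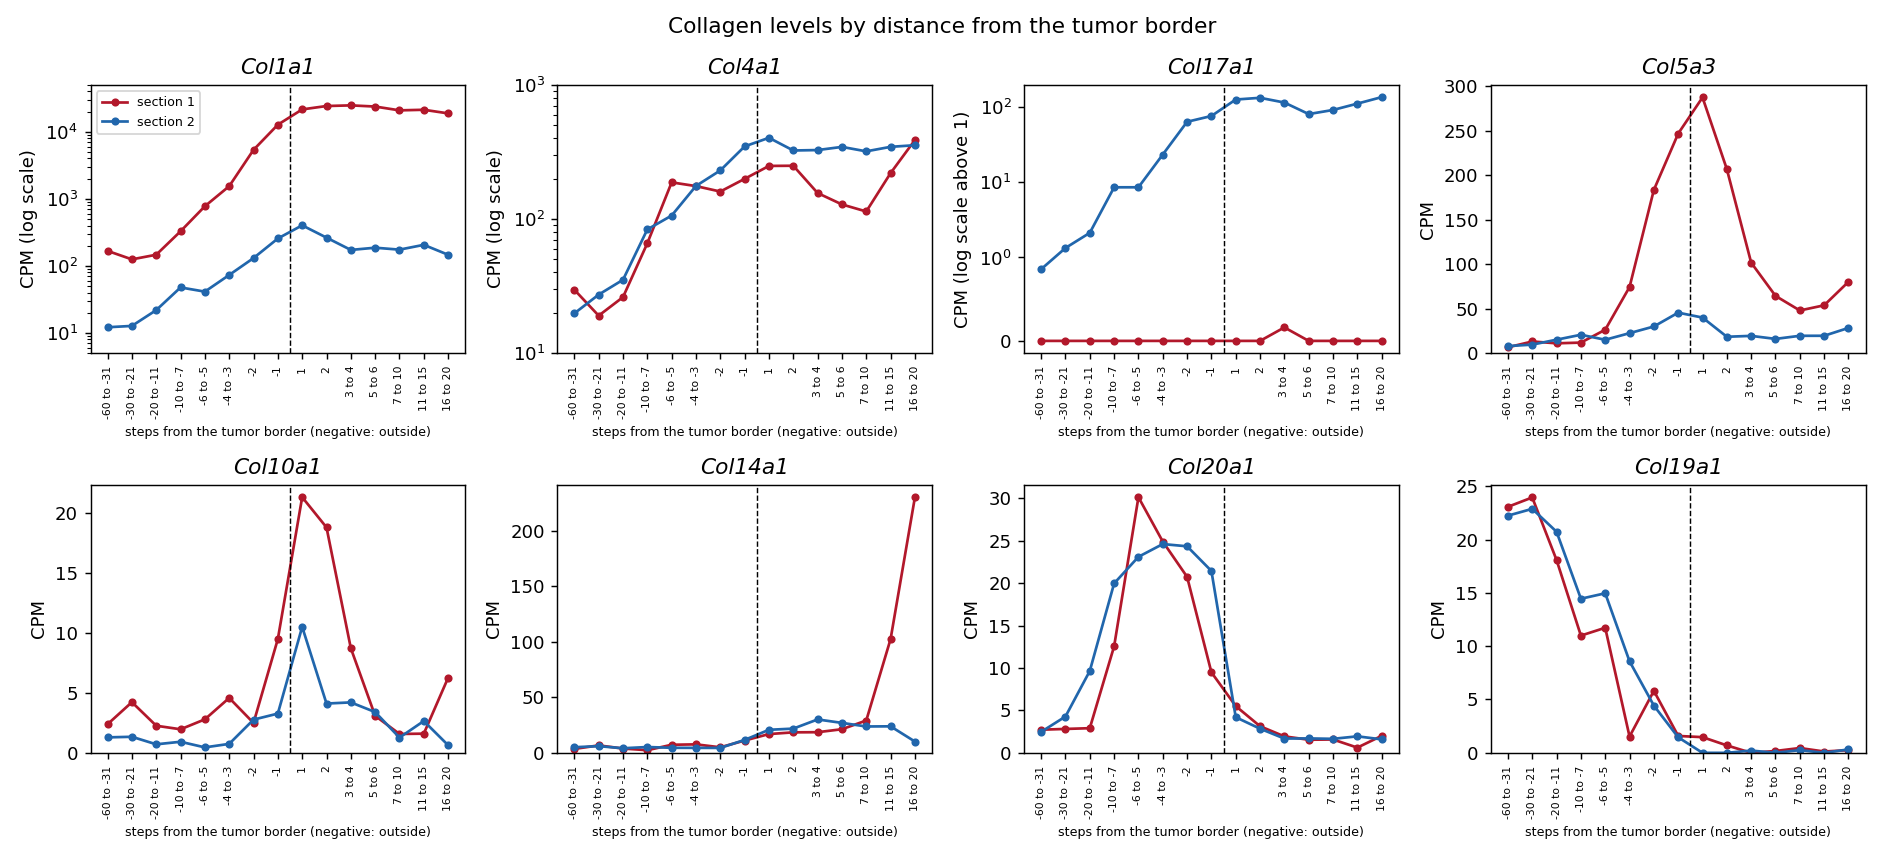
Unscaled CPM of 8 collagens by steps from the tumor border in section 1 (red) and section 2 (blue), each point the summed spots of one bin; the dashed line marks the border, the tumor lies to its right, and the scale is logarithmic for Col1a1 and Col4a1 and above 1 CPM for Col17a1. Col10a1 peaks in the first row inside the border in both sections, Col20a1 peaks outside it, Col19a1 rises with distance into neural tissue, and Col14a1 rises toward the deepest tumor spots of section 1.

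Col10a1 and Col5a3 were highest along the border itself. Col10a1 was highest at step 1 in both mice, with 21.3 CPM in section 1 and 10.5 CPM in section 2, and was at 1.57 and 1.27 CPM at steps 7 to 10. Col5a3 reached 287 CPM at step 1 of section 1 and 45.4 CPM at step -1 of section 2, against 47.9 and 19.4 CPM at steps 7 to 10. Both sections therefore had their peak of either gene within 1 step of the border. The macrophage markers peaked just outside, at 17396 and 18341 CPM at step -2.

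Col20a1 and Col2a1 formed a band in the neural tissue beside the tumor. Col20a1 was at 30.2 CPM at steps -6 to -5 of section 1 and 24.6 CPM at steps -4 to -3 of section 2, and at 2.73 and 2.47 CPM at steps -60 to -31. Col2a1 was at 167 CPM in section 1 and 43.7 CPM in section 2 in the same bins, and at 6.02 and 8.81 CPM far away. Choroid plexus markers were also high near there, at 2499 CPM at steps -10 to -7 of section 1. Without the spots in the top 5% for choroid plexus or meninges markers, Col20a1 was at 36.1 and 24.5 CPM and Col2a1 at 129 and 44.2 CPM in those bins, so the band was still seen in the other spots. The spots left out held a part of the Col2a1 counts. At steps -6 to -5 of section 1, 299 UMIs of Col2a1 were counted with them and 157 without them. Astrocyte markers were highest at steps -10 to -7, with 7158 and 9089 CPM, and their part in the band was not tested. Col8a2, by contrast, fell from 21.2 to 7.03 CPM at steps -10 to -7 of section 1 once these spots were left out.

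Depth within the first tumor separated further genes. In section 1, Col14a1 went from 16.9 CPM at step 1 to 230.2 CPM at steps 16 to 20, Col4a6 from 5.15 to 117 CPM and Col8a2 from 4.04 to 90.4 CPM. Col6a3 ran the other way, from 1365 to 494 CPM, and so did Col7a1, from 178 to 60.9 CPM. In section 2 none of the 3 deep genes had this course: Col14a1 was at 20.7 and 10.2 CPM, Col4a6 at 27.6 and 29.2 CPM, and Col8a2 at 17.6 and 4.13 CPM in those bins. The fibroblast markers moved with them in section 1, from 909 to 2152 CPM, and their part was not tested.

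Across single spots of the tumor interior, collagens with at least 1 UMI per spot on average were set against one another and against the marker lists. Spearman's rho of log2(CPM + 1) is given as a description, since spots of one section share a library, their depth and their neighbors. Some partner chains went together in both mice. Col1a1 with Col1a2 had rho 0.77 over 616 spots of section 1 and 0.68 over 614 spots of section 2, and Col4a1 with Col4a2 had 0.62 and 0.65. Col6a1 with Col6a2 had 0.40 and 0.40, but Col4a5 with Col4a6 had 0.49 in section 1 and 0.08 in section 2. Type I with type IV differed between the mice, with rho -0.04 for Col1a1 and Col4a1 in section 1 and 0.46 in section 2. Col14a1 with Col4a6 had 0.57 in section 1 and 0.10 in section 2.

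Against the markers, 4 fibrillar collagens of section 2 had a median rho of 0.53 with the fibroblast list, 0.47 with the endothelial list and -0.44 with the epithelial list. In section 1, where 8 fibrillar collagens could be used, these medians were 0.21, 0.10 and -0.01. The 4 of section 2 also had 0.45 with the mural, 0.25 with the granule neuron, 0.22 with the macrophage and 0.21 with the Purkinje cell list. With the oligodendrocyte, choroid plexus, meninges and astrocyte lists they had 0.07, -0.01, -0.08 and -0.15. The 7 basement membrane collagens of section 1 had 0.55 with the fibroblast list and 0.41 with the macrophage list, and the 7 of section 2 had 0.19 and 0.01. With the endothelial and mural lists they had -0.20 and -0.28 in section 1, and 0.19 and 0.18 in section 2. Col17a1, measurable only in section 2, had -0.03 with the epithelial list and 0.05 with the fibroblast list. The values depend on the scaling. In raw UMIs, which carry the depth of each spot, the fibrillar medians were 0.53, 0.52 and 0.35 in section 1 and 0.50, 0.44 and -0.14 in section 2 with the fibroblast, endothelial and epithelial lists. The medians were thus close for the first list, but they are taken over 8 collagens in section 1 and 4 in section 2. No p-value is given for these values.

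The machinery that makes and binds collagen was read from lists of genes with a known role. Of 33 genes for chain modification, folding, processing and cross-linking, 15 were higher and 2 lower in the tumor interior than in neural spots, and 12 were higher and 0 lower at the outer edge. Of all genes tested, 17.2% were higher and 18.0% lower in the tumor interior, and 6.79% and 6.29% at the outer edge. The median log2 fold change of the list was 1.54 and 1.25, against -0.14 and -0.03 over all genes. P4hb, the shared subunit of the prolyl hydroxylases, had 917, 1043, 718 and 137 CPM in section 1 and 1014, 910.3, 615 and 158 CPM in section 2 (log2 fold change 2.71, SE 0.23, adjusted p = 0.000956). Loxl1, a lysyl oxidase that cross-links elastin and collagen, had 254, 207, 79 and 11.1 CPM and 129, 144, 81.6 and 12.5 CPM (log2 fold change 3.96, SE 0.35, adjusted p = 0.00104). Colgalt1, which adds galactose to hydroxylysine, had a log2 fold change of 2.04 (adjusted p = 0.00111), and Adamts14, which removes the N-terminal propeptide of fibrillar procollagens, one of 3.36 (adjusted p = 0.00119). The same 4 genes had the lowest p at the outer edge, where P4hb had a log2 fold change of 2.18 (SE 0.22, adjusted p = 0.012). The 2 lower genes, named after their values were seen, were the procollagen proteases Tll1 (-2.81, adjusted p = 0.00181) and Adamts3 (-1.60, adjusted p = 0.0153). The tumor interiors of sections 1 and 2 were alike for P4hb, at 917 and 1014 CPM, but not for all genes of the list. Named after their values were seen, Serpinh1, the collagen chaperone, had 1319 and 293 CPM there, Pcolce, an enhancer of procollagen cleavage, 1016 and 40.7 CPM, and Lox, a lysyl oxidase, 209 and 10.4 CPM. Other genes of the list were higher in section 2, also named afterwards. P4ha2 had 63.2 and 442 CPM, Loxl2 9.42 and 102 CPM, and Plod2 64.3 and 144 CPM in the tumor interiors of sections 1 and 2.

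Of 12 collagen receptors, 5 were higher in the tumor interior and 4 at the outer edge, and 0 were lower in either, against the same shares over all genes. The median log2 fold change of the list was 1.65 in the tumor interior and 0.99 at the outer edge. Itgb1, the beta 1 chain of all collagen-binding integrins, had 666, 803, 399.8 and 81.8 CPM in section 1 and 691, 571, 379 and 106 CPM in section 2 (log2 fold change 2.85, SE 0.27, adjusted p = 0.00125). Itga1 and Itga2, the alpha chains that favor type IV and type I collagen, were higher by 1.29 (adjusted p = 0.00402) and 2.92 (adjusted p = 0.00197) on the log2 scale. Cd44, chiefly a hyaluronan receptor that also binds collagen, had 2.66 (adjusted p = 0.00167). Itga11, an alpha chain of fibroblasts for type I collagen, was named as the last of the 5 after its values were seen. It had 108, 63, 23 and 2.88 CPM in section 1 and 5.42, 5.58, 2.05 and 1.67 CPM in section 2 (log2 fold change 3.30, SE 0.89, adjusted p = 0.0359), a gap between the mice like that of the fibrils.

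Of 12 small leucine-rich proteoglycans, which bind fibrils and set their spacing, 2 were higher in the tumor interior, 0 at the outer edge, and 0 were lower in either. The 2 genes are a share of the list near the 17.2% of all genes called higher, so the count is no result about the list. Its median log2 fold change was 1.45 in the tumor interior and 0.64 at the outer edge. Bgn, biglycan, had 442, 236, 104 and 26.1 CPM in section 1 and 88.2, 152, 119 and 24.6 CPM in section 2 (log2 fold change 3.15, SE 0.65, adjusted p = 0.0154). Ogn, osteoglycin, had 189.8, 62.8, 19.6 and 4.03 CPM and 6.71, 11.2, 5.24 and 2.53 CPM (log2 fold change 3.72, SE 1.03, adjusted p = 0.0392). The tumor interior of section 1 was the highest library for both genes. Lum, lumican, and Dcn, decorin, named after their values were seen, did not pass the test (log2 fold change 4.53, adjusted p = 0.0611 for Lum, and 3.58, adjusted p = 0.068 for Dcn). At the outer edge 1 gene of the list, Bgn, came nearest to the threshold (adjusted p = 0.0767).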

How the data were processed

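Whole-transcriptome probe counts of 2 sections were used as deposited. Per the submitters' processing notes the authors made these counts with Space Ranger 2.1.1 on mm10. Each value is the raw number of UMIs of a gene under a spot, with no normalization. The per-spot clusters of the study were not used here. Spots with under 500 UMIs were left out. The neural index was log10 of the summed CPM of the neural list, split by Otsu's method in each section. A tumor or neural patch had at least 50 connected spots, each edge was 2 steps wide, and spots in smaller patches were put in no region.

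UMIs were summed by section and region and tested with edgeR 4.0.16 (quasi-likelihood, TMM, section as block, R 4.3.3), with Benjamini-Hochberg adjustment over all 19112 genes tested and a threshold of 0.05. The regions of a section pair by their mouse. Each section is 1 mouse, so all comparisons rest on n = 2. With the section as a block, the test measures how far the differences between regions vary between these sections, over all 8 libraries. Total depth was 63986887 and 71878333 UMIs. The SE given is the absolute log2 fold change divided by the square root of the quasi-likelihood F statistic. Intervals are exact Poisson and cover counting error only. Alternatives included DESeq2 1.42.0, other scalings, filters, thresholds, edge widths and 2-means regions. The profile without the spots high for choroid plexus or meninges markers was added after seeing the data. The meninges markers summed to 195 and 348 CPM in the tumor interiors of sections 1 and 2, against 45.3 and 50.5 CPM in neural spots. That filter therefore also removed tumor spots and left 528 of the 614 tumor interior spots of section 2. Values in all libraries were given for all called members and for uncalled members that reached 50 CPM in some library; the rest were given by range, and some of them by section ratio or profile. Members and lists were chosen with earlier results of these data known. Python 3.11.15 was used for regions, distances and motifs. Sequences and gene positions came from RefSeq's tables for GRCm38.p6.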

Additional observations from a re-analysis of the deposited data

Results flagged for a closer look

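Of the spots that fell in no region, 101 in section 2 had at least 500 UMIs, and these had 55562 CPM of choroid plexus markers. In these spots 7 members were above every region of that section, 3 of them at 50 CPM or more. Col9a3 was at 414.42 CPM (898 UMIs), against 49.3 CPM in neural spots and 177 CPM at the inner edge. Col8a1 was at 214.594 CPM (465 UMIs), against at most 125 CPM in a region. Col8a2, the partner chain of type VIII collagen, was at 193.827 CPM (420 UMIs), against at most 17.2 CPM. The other 4 were Col4a4 at 24.0 CPM (52 UMIs, at most 2.88 CPM in a region), Col4a3 at 15.7 CPM (34 UMIs, at most 2.44), Col5a3 at 41.5 CPM (90 UMIs, at most 39.3) and Col22a1 at 4.61 CPM (10 UMIs, at most 4.44). All are unscaled CPM, and none was tested. In section 1, leaving out the spots high for choroid plexus or meninges markers moved Col9a3 from 61.6 to 52.7 CPM and Col8a2 from 21.2 to 7.03 CPM at steps -10 to -7.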

How the results depend on the processing

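The 26 collagens called between tumor interior and neural spots became 14 (11 higher, 3 lower) with no replicate block, and 23 to 27 under the other alternatives. Of the 26, 13 were called under every alternative and 20 under every one but the block. Between outer edge and neural spots, 14 were called in the reported setting, 22 by DESeq2 (23.2% of all genes), 3 with no replicate block and 0 with regions from 2-means clustering, so that none was called under every alternative. Col9a1 turned direction there with 2-means regions (log2 fold change -0.15). For inner edge against tumor interior, 2-means regions gave 3 calls (Col14a1, Col19a1, Col20a1). For outer against inner edge, DESeq2 gave 4, and library size only and an edge of 4 steps gave 1 each (Col20a1). The cause of these changes was not tested. The mean log2 ratio of tumor interior to neural was 2.26 for basement membrane collagens, 4.53 in UMIs per spot and 2.71 with 2-means regions. For the 24 remaining collagens it was 2.95, and 5.23 in UMIs per spot. Leaving out 1 section gave 1.19 to 5.78 for fibrillar, 2.03 to 2.49 for basement membrane and 1.85 to 4.05 for the remaining collagens, and no counts of calls, since no residual degrees of freedom are left. Scaling moved the median of all genes between tumor interior and neural spots from -0.14 (TMM) to -0.02 (RLE size factors) and -0.45 (library size only). In raw UMIs the rho in section 1 was 0.92 for Col1a1 with Col1a2 and 0.20 for Col1a1 with Col4a1, and the median rho of fibrillar collagens with the macrophage list turned from -0.24 to 0.41. Depth limits the members under 3 CPM, whose edge libraries hold few UMIs.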

Other observations

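The balance of partner chains differed between the mice. Col5a1 over Col5a2 UMIs stood at 1.88, 2.71, 2.75 and 0.877 in the tumor interior, inner edge, outer edge and neural spots of section 1, and at 0.559, 0.494, 0.642 and 0.759 in section 2. Col1a1 over Col1a2 was at 1.19 in the tumor interior and 1.3 in neural spots of section 1, and at 1.66 and 0.481 in section 2. Col6a1 over Col6a2 was at 0.75 and 1.38 in the 2 tumor interiors. Probes differ between genes, so these ratios are read only across regions and sections, and the differences were not tested.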
